A study of Mus musculus with 56 samples.

Results

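The genes of the proteasome were followed in the visceral adipose tissue (VAT) of mice fed only by day or only by night. They were taken from the table by symbol: protein-coding genes whose symbol starts with Psma, Psmb, Psmc, Psmd, Psme, Psmf or Psmg and a number. Of 25939 genes, 49 met this rule after 2 pseudogene symbols had been dropped. They comprised 31 constitutive subunits, the 3 immunoproteasome subunits Psmb8, Psmb9 and Psmb10, 13 activators, inhibitors and assembly factors, the testis subunit Psma8, and Psmc3ip, which shares the symbol's first letters but encodes no subunit. All 49 had reads in all libraries, and 48 had a mean of at least 1 TPM (transcripts scaled to gene length and a fixed library total) when recomputed from the reads, Psma8 being the exception.

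The study asked how feeding time resets daily transcript rhythms. VAT was collected from female C57BL/6J mice aged 9 weeks after 7 days with food given only by night (nighttime-restricted feeding, NRF, the control regimen) or only by day (daytime-restricted feeding, DRF), all kept on a normal chow diet and a light-dark cycle. Mice were sampled at zeitgeber times (ZT) 0, 4, 8, 12, 16, 20 and 24, with lights off from ZT12, which gave 14 groups of 4 libraries, 28 libraries per regimen and 56 in all. Both regimens restrict feeding, so neither group ate freely, and the mice carried no transgene.

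The proteasome degrades proteins that carry ubiquitin chains. Its 20S core is a barrel of alpha rings, which gate the entry, around beta rings, which hold the active sites. The 19S cap recognises ubiquitin, unfolds the substrate with a ring of ATPases and feeds it into the core. Interferon-stimulated cells replace the catalytic subunits Psmb5, Psmb6 and Psmb7 with Psmb8, Psmb9 and Psmb10, which changes the peptides offered to T cells on MHC class I. In adipocytes the transcription factor Nfe2l1 is known to raise proteasome genes when proteasome activity falls short.

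Levels are given as RPKM, reads scaled to gene length and to the authors' effective library size, from whole reads recovered out of the deposited values. Differences are on log2(CPM + 1), in log2 units, with 1 SE, from limma fitted over all genes with Benjamini-Hochberg adjustment. Recovered reads ranged from 30.992 to 41.0239 M per library. The adipocyte markers summed to between 5368 and 28074 RPKM, so the tissue's label fitted its RNA. A pair of DRF libraries stood apart. Markers of reproductive tract epithelium summed to 574.6 RPKM in ZT0 replicate 4 and 181.4 RPKM in ZT8 replicate 1, against a median of 0.935 RPKM in the other 54, and adipocyte markers were lowest in these 2 libraries. Liver markers summed to 736.3 RPKM in the NRF library ZT24 replicate 4, against 34.2 RPKM at most in the other 55. Without that library, a setting added once the values were known, 23 of 31 constitutive subunits again had a higher mean under DRF, and the differences of Psmb8, Psmb9 and Psmb10 were -0.63, -0.49 and -0.41. Skeletal muscle markers ranged from 3.91 to 304.9 RPKM over all libraries, and their part in the results was not tested. Counts of called genes are also given without the 2 DRF libraries where that count differs.

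Per length, the constitutive subunits spanned a range of levels. Their means over all libraries ran from 11.6 RPKM for Psmd11, a scaffold of the cap's lid, to 106.3 RPKM for the catalytic Psmb5 and 107.0 RPKM for the alpha-ring Psma6. Psmc1 and Psmc5, ATPases of the cap, followed at 76.0 and 75.7 RPKM. Of the immunoproteasome subunits, Psmb8 at 10.1 RPKM and Psmb9 at 6.35 RPKM lay below all constitutive subunits. Psmb10, at 25.2 RPKM, lay within their range. The lowest accessory factor was the assembly chaperone Psmg3 at 1.64 RPKM. Group means of the chaperone Psmd9 ran from 2.92 to 3.51 RPKM, and the inhibitor Psmf1 was at 4.92 RPKM. Psma8, which replaces an alpha subunit in male germ cells, was at 0.240 RPKM, and in 1 library it had only 4 reads.

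Most constitutive subunits were higher under DRF. Over the day, 23 of 31 had a higher mean level under DRF and 0 a lower one. Among all genes tested, 11.4% were higher and 10.3% lower. Estimates were above 0 for all 31, between 0.03 and 0.40, with a median of 0.17, whereas the median of all genes was -0.00036. The lowest estimate fell to -0.0098 when libraries were scaled by their plain totals and to -0.0027 without ZT24. Without the 2 DRF libraries that stood apart, 27 of 31 were higher, in a fit that called 14.6% of all genes higher and 14.3% lower. The summed level of the 31 ran from 984 through a median of 1263 to 1555 RPKM under NRF, and from 1111 through 1443 to 1664 RPKM under DRF. The ranges overlapped. Counts of 16 to 22 were higher when the fit dropped 1 of the 4 replicate numbers, for which the shares of all genes are not given here. Of the 23, 15 kept the call under all 11 alternatives given with the processing, Psmb5, Psmb7, Psmd14, Psmc4 and Psma1 among them.

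**Figure D1:**
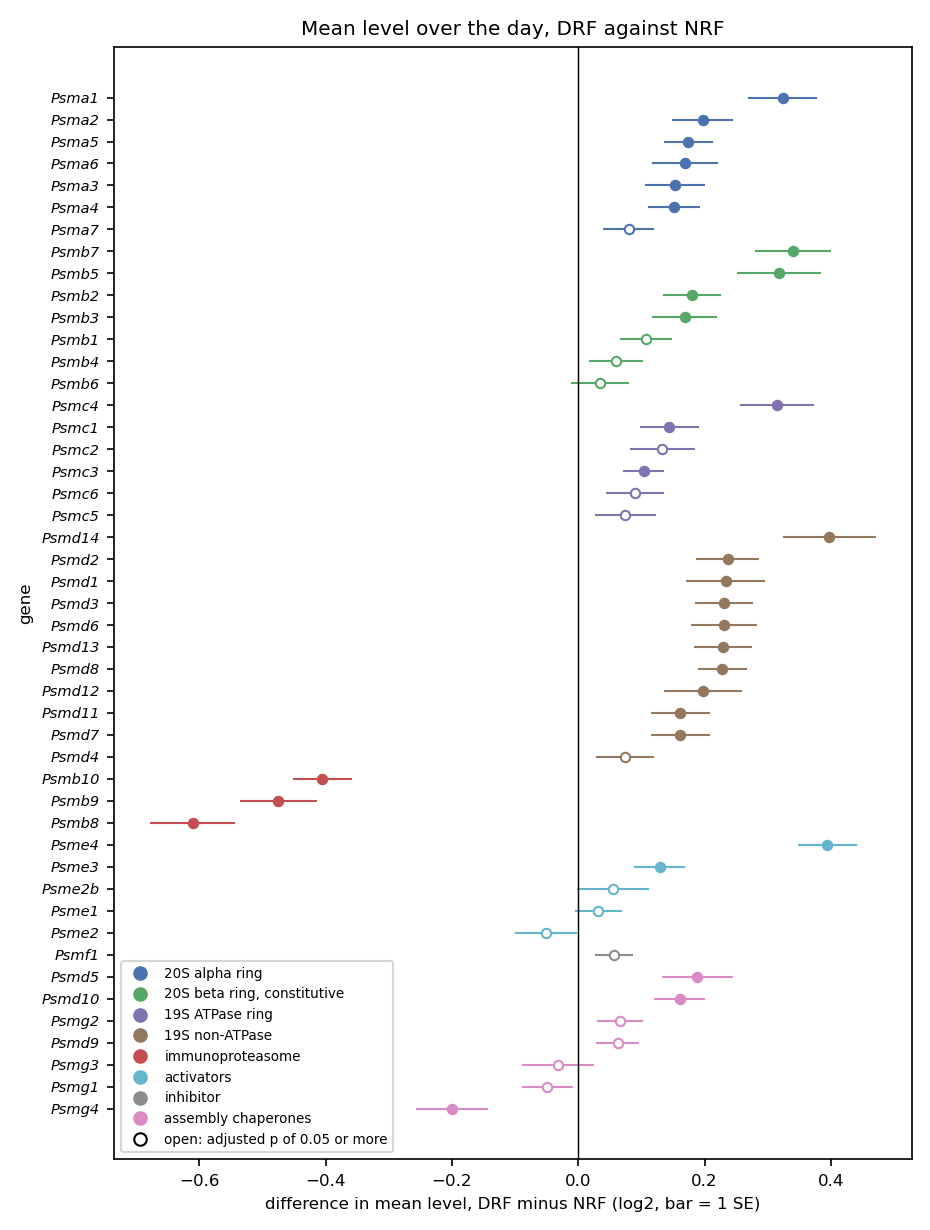
Difference in mean level over the day, DRF minus NRF in log2 units, for 47 proteasome genes grouped by class; points are estimates, bars 1 SE, and open points did not pass the test. The 31 constitutive subunits lie right of 0, between 0.03 and 0.40, and the 3 immunoproteasome subunits left of it, between -0.61 and -0.41.

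The largest difference was that of Psmd14, the deubiquitinase of the cap that removes ubiquitin chains before degradation. Its level ran from 15.9 through a median of 24.9 to 34.1 RPKM under NRF and from 19.9 through 33.7 to 41.0 RPKM under DRF. The difference was 0.40 ± 0.07 (SE, n = 28 libraries per regimen; limma, adjusted p = 4.66e-05), or 1.32-fold. Psmb7 and Psmb5, which carry the trypsin-like and chymotrypsin-like sites, had the largest differences of the beta ring. Psmb7 ran from 21.6 through 31.4 to 39.4 RPKM under NRF and from 26.8 through 41.2 to 51.6 RPKM under DRF, with a difference of 0.34 ± 0.06 (limma, adjusted p = 2.16e-05). Psmb5 ran from 69.1 through 93.9 to 140.0 RPKM under NRF and from 80.4 through 115.0 to 158.6 RPKM under DRF, with a difference of 0.32 ± 0.07 (limma, adjusted p = 3.04e-04). The regimens' ranges overlapped for each of these genes, and the medians under DRF lay above those under NRF. The remaining catalytic subunit did not follow: Psmb6, with the caspase-like site, had medians of 55.3 RPKM under NRF and 56.7 RPKM under DRF and a difference of 0.03 ± 0.05 (limma, adjusted p = 0.672).

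By position in the particle, and against 11.4% of all genes, 6 of 7 alpha subunits were higher under DRF (Psma1, Psma2, Psma3, Psma4, Psma5 and Psma6, not Psma7). In the beta ring, 4 of 7 were higher (Psmb2, Psmb3, Psmb5 and Psmb7, not Psmb1, Psmb4 and Psmb6). Among the ATPases, 3 of 6 were higher (Psmc1, Psmc3 and Psmc4, not Psmc2, Psmc5 and Psmc6). Among the other cap subunits, 10 of 11 were higher (Psmd1, Psmd2, Psmd3, Psmd6, Psmd7, Psmd8, Psmd11, Psmd12, Psmd13 and Psmd14), and the ubiquitin receptor Psmd4 was not, at 0.07 ± 0.05 (limma, adjusted p = 0.277). Psma1 at 0.32 ± 0.05 (limma, adjusted p = 9.86e-06) and Psmc4 at 0.31 ± 0.06 (limma, adjusted p = 6.32e-05) had the largest differences of their rings. The counts were 6 of 7, 5 of 7, 5 of 6 and 11 of 11 without the 2 DRF libraries that stood apart, where 14.6% of all genes were higher. The calls of Psma3, Psma6, Psmb3, Psmc1, Psmc3, Psmd1, Psmd7 and Psmd12 were lost under at least 1 alternative. Whether the classes differ from each other was not tested.

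Promoter sequence was given by RefSeq (GRCm38.p6) for 41 of the 49 genes, and not for Psma8, Psmb1, Psmb2, Psmb7, Psmc3, Psmd3, Psmd7 and Psmg2. In the 250 bases before the start, TGACNNNGC, the core of the antioxidant response element that Nfe2l1 and Nfe2l2 bind, was found on either strand in 5 of 41 (12.2%), against 11.5% of 27025 genes. CCAAT stood in 34.1% of the members and 37.5% of all genes, the E-box CACGTG in 9.76% and 6.86%, the interferon-response core GAAANNGAA in 7.32% and 8.18%, and the GAS element TTCNNNGAA, a STAT site, in 4.88% and 8.13%. Motifs were counted independently, so matches may overlap. The bases before the start are shown for Psmd12, Psmb5 and Psmb6, the genes with the antioxidant core whose feeding difference was largest, with that core in capitals. Psmb8, chosen after the values were seen, is added with its GAS match in capitals. They lie at chr11:107479278-107479527 (plus strand), chr14:54617996-54618245 (minus), chr11:70525107-70525356 (plus) and chr17:34197945-34198194 (plus), written 5′ to 3′ on the gene's strand, and end at the start RefSeq gives, which for Psmb8 lies inside the gene as annotated by Ensembl.
Psmd12: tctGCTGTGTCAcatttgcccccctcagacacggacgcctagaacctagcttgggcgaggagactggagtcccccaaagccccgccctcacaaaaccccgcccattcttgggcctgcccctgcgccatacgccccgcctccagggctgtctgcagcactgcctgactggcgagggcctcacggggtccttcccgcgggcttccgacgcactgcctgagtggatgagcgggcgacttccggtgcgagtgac
Psmb5: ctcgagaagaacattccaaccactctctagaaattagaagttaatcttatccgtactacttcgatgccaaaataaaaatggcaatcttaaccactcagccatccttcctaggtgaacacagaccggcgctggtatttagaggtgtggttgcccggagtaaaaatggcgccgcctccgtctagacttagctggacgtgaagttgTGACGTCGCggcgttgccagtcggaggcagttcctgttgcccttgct
Psmb6: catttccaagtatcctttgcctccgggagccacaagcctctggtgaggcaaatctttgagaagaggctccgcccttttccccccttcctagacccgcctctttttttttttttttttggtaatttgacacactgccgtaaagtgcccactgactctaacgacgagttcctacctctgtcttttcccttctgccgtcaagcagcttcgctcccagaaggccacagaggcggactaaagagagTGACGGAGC
Psmb8: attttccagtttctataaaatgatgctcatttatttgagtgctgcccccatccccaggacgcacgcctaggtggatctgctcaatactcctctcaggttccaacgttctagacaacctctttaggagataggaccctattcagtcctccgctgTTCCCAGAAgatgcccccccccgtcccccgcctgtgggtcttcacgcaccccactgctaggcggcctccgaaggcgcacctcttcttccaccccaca
The core began 247 bases before the start in Psmd12, 47 in Psmb5 and 9 in Psmb6. Among these 3 genes, Psmb5 and Psmd12 had a higher mean level under DRF and Psmb6 did not pass the test, so genes with the core stood on both sides of the threshold. A match is a run of letters, not a measured binding site.

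The difference between the regimens was spread unevenly over the day. Of 217 pairs of a constitutive subunit and a time point, 47 were higher under DRF and 2 lower, and among all pairs of a gene and a time point 7.34% were higher and 6.51% lower. The calls fell at ZT16 (16 subunits), ZT8 (13) and ZT4 (8), with 1, 4 and 5 at ZT12, ZT20 and ZT24 and 0 at ZT0. The median difference of the 31 was 0.35 at ZT16, 0.29 at ZT8, 0.24 at ZT4, 0.18 at ZT12, 0.16 at ZT24, 0.11 at ZT20 and -0.11 at ZT0. At ZT16 all 31 estimates were above 0, and at ZT0 only 6 were. ZT0 and ZT24 are the same hour of the cycle in different mice, and the subunits' median had opposite signs there. The lower calls were the ATPase Psmc6 at ZT0, -0.34 ± 0.11 (limma, adjusted p = 0.044), and Psmd4 at ZT12, -0.32 ± 0.11 (limma, adjusted p = 0.031). Dropping 1 of the 4 replicate numbers gave 10 to 37 higher pairs, the fewest without replicate 4, and 66 were higher without the 2 DRF libraries that stood apart. The shares of all pairs under these settings are not given here.

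**Figure D2:**
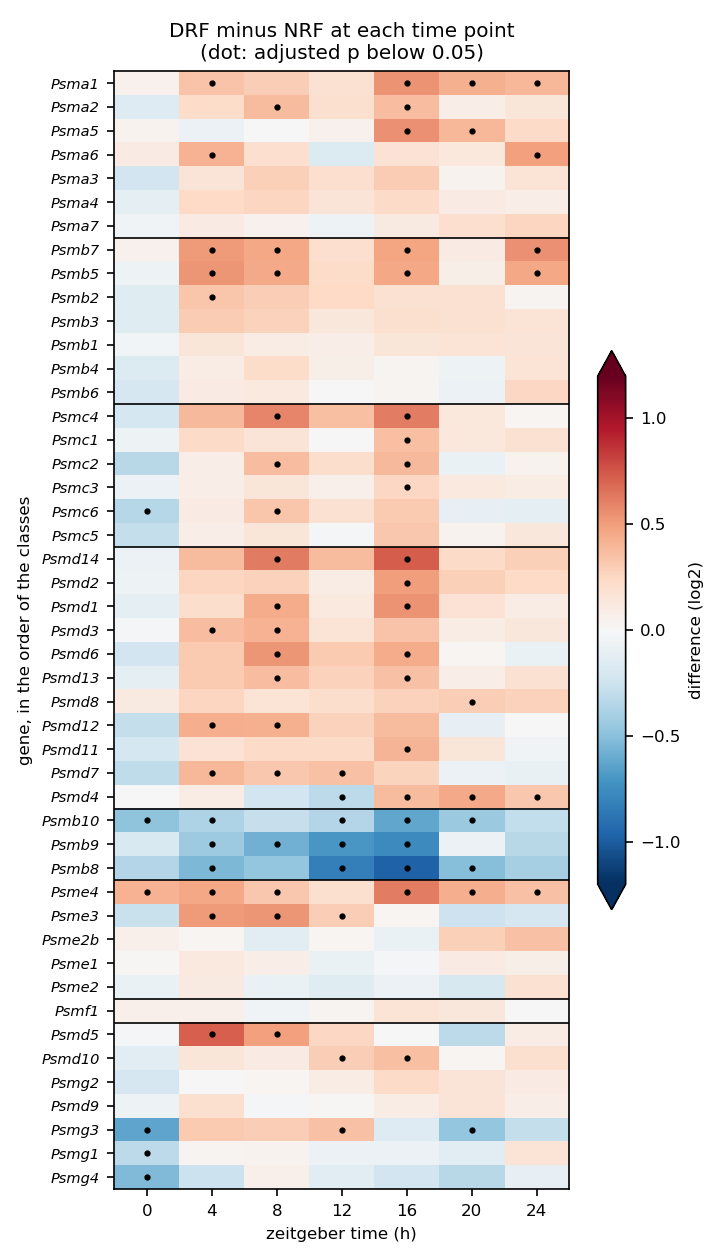
DRF minus NRF at each zeitgeber time in log2 units, with a row per gene ordered by class and a dot where the pair passed the test. Dots for the constitutive subunits are densest at ZT16 (16), ZT8 (13) and ZT4 (8), and at ZT0 0 subunits are called higher.

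Group means placed the low point of the night-fed tissue late in the day. Under NRF the mean was lowest at ZT8 for 24 of 31 constitutive subunits (77.4%), as for 17.0% of all genes, and highest at ZT0 for 19 (61.3% against 12.0%). At ZT24, the same hour in other mice, it was highest for 4 (12.9% against 13.2%) and lowest for 2, so the high point at ZT0 was not repeated there. The NRF ZT8 group holds the library highest in skeletal muscle markers, replicate 4. It had 304.9 RPKM against a median of 25.9 RPKM in the other 55, and its part in the low point was not tested. Under DRF the mean was highest at ZT4 for 16 (51.6% against 17.1%) or at ZT16 for 12 (38.7% against 12.2%), and lowest at ZT0 for 17 (54.8% against 13.5%) or at ZT8 for 11 (35.5% against 12.9%). These 2 DRF groups hold the libraries that stood apart, whose constitutive subunits summed to 1111 and 1116 RPKM against a DRF median of 1443 RPKM. Without them, a setting added once the values were known, the DRF mean was lowest at ZT0 for 15 (48.4% against 15.9% of all genes) and at ZT8 for 8 (25.8% against 13.8%), and the counts of highest means at ZT4 and ZT16 were again 16 and 12. Psmd14 shows the pattern at ZT8 and ZT16. At ZT8 it had 16.5, 16.1, 25.05 and 16.5 RPKM under NRF and 23.8, 24.6, 35.8 and 30.4 RPKM under DRF, and the highest NRF library overlapped the DRF values. At ZT16 it had 18.4, 25.7, 20.6 and 24.2 RPKM under NRF and 35.2, 33.5, 37.7 and 40.3 RPKM under DRF, with no overlap. The difference at ZT16 was 0.72 ± 0.18 (limma, adjusted p = 0.0066). Psmb5 at ZT4 had 100.4, 105.7, 96.7 and 92.5 RPKM under NRF and 136.5, 123.4, 158.2 and 158.6 RPKM under DRF, again with no overlap, and a difference of 0.53 ± 0.15 (limma, adjusted p = 0.009).

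The immunoproteasome moved the opposite way. All 3 subunits had a lower mean level under DRF, which 10.3% of all genes had, and they kept that call under all 11 alternatives given with the processing. The genes lie at the MHC on chromosome 17 for Psmb8 (34197721 to 34201454 in GRCm38, plus strand) and Psmb9 (34181987 to 34187764, minus strand), and on chromosome 8 for Psmb10 (105935735 to 105938444, minus strand). Psmb8 ran from 7.16 through a median of 11.7 to 17.7 RPKM under NRF and from 5.04 through 7.94 to 11.6 RPKM under DRF. Its difference was -0.61 ± 0.07 (SE, n = 28 per regimen; limma, adjusted p = 9.96e-10), or 0.655-fold. Psmb9 ran from 4.94 through 6.93 to 11.4 RPKM under NRF and from 3.48 through 5.39 to 7.09 RPKM under DRF, with a difference of -0.47 ± 0.06 (limma, adjusted p = 5.97e-08). Psmb10 ran from 21.9 through 27.7 to 40.9 RPKM under NRF and from 16.05 through 21.3 to 29.6 RPKM under DRF, with a difference of -0.41 ± 0.05 (limma, adjusted p = 3.59e-09). The regimens' ranges overlapped over the whole day, and the DRF mean was the lower one at all 7 time points for each of the 3 genes.

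**Figure D3:**
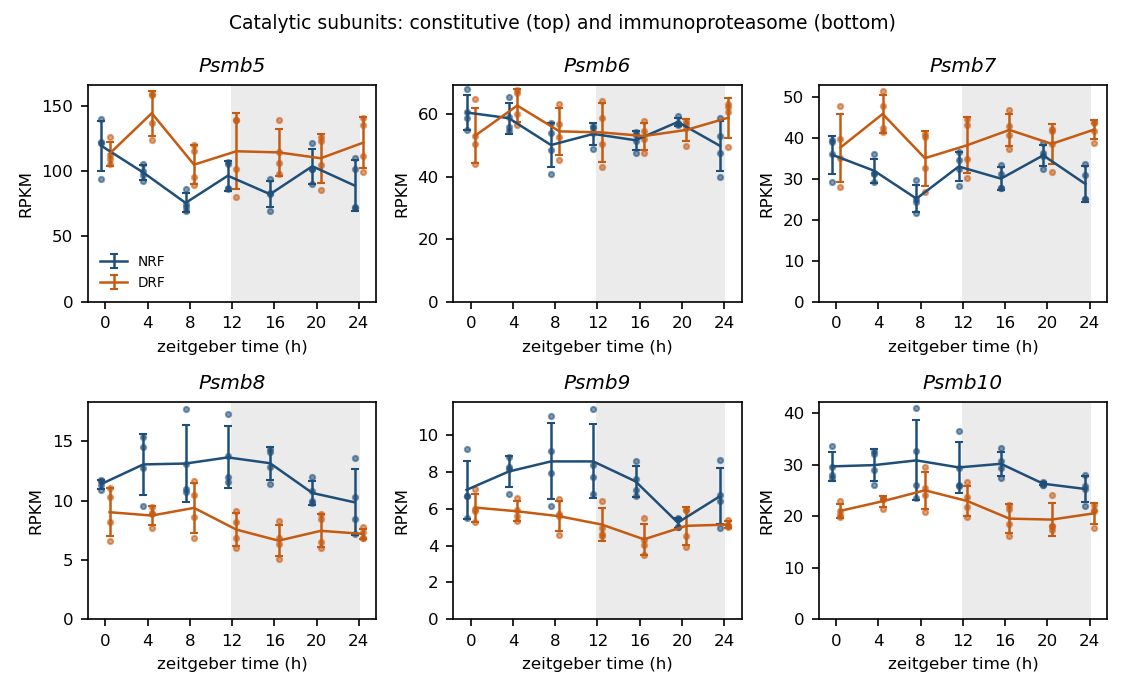
RPKM of the catalytic subunits against zeitgeber time, constitutive above and immunoproteasome below; points are libraries, lines and bars the mean and SD of 4 mice, and grey the dark phase. For Psmb8 the DRF mean lies below the NRF mean at all 7 time points, for Psmb7 above it at all 7, and for Psmb5 above it at 6.

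At ZT16, Psmb8 had 14.4, 12.8, 14.1 and 11.4 RPKM under NRF and 5.04, 8.26, 6.35 and 6.80 RPKM under DRF. The groups did not overlap, and the difference was -0.97 ± 0.17 (limma, adjusted p = 1.7e-04). For Psmb8 the 4 DRF libraries all lay below the 4 NRF libraries at ZT4, ZT12, ZT16 and ZT20, for Psmb9 at ZT4, ZT12 and ZT16, and for Psmb10 at ZT0, ZT4, ZT16 and ZT20. How often groups separated in this way over all genes is not given here. The smallest time-point difference was that of Psmb9 at ZT20, -0.07 ± 0.16 (limma, adjusted p = 0.88), where its NRF values of 5.46, 5.51, 5.02 and 5.01 RPKM lay among the DRF values of 5.93, 4.53, 3.91 and 5.92 RPKM. As annotated, exons of Psmb8 share 498 bases with the antisense gene Gm20496 and those of Psmb9 share 212 bases with Tap1 on the other strand. The kit as named does not mark strand, so reads from those bases cannot be assigned to a gene. The length of Psmb8, 2736 bases, was taken from the deposited values and is not the annotated one. Whether all of the 498 shared bases were counted is therefore not known.

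Each immunoproteasome subunit takes the place of a constitutive one, so the reads per length of each pair were set against each other within a library, where the scaling between libraries cancels. Psmb8 was at 7.06% to 25.6% of Psmb5 under NRF, with a median of 13.2%, and at 4.76% to 13.0% under DRF, with a median of 6.72%. Psmb9 was at 8.81% to 21.1% of Psmb6 under NRF, with a median of 12.8%, and at 7.04% to 13.4% under DRF, with a median of 9.83%. Psmb10 was at 68.2% to 189.2% of Psmb7 under NRF, with a median of 83.7%, and at 40.9% to 90.9% under DRF, with a median of 53.7%. The DRF mean was lower at 7, 6 and 7 of 7 time points, and all DRF libraries lay below all NRF libraries at 4, 4 and 5 of them. The pairs were chosen by their place in the particle with the single-gene results known, so these ratios are a description with no test.

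**Figure D4:**
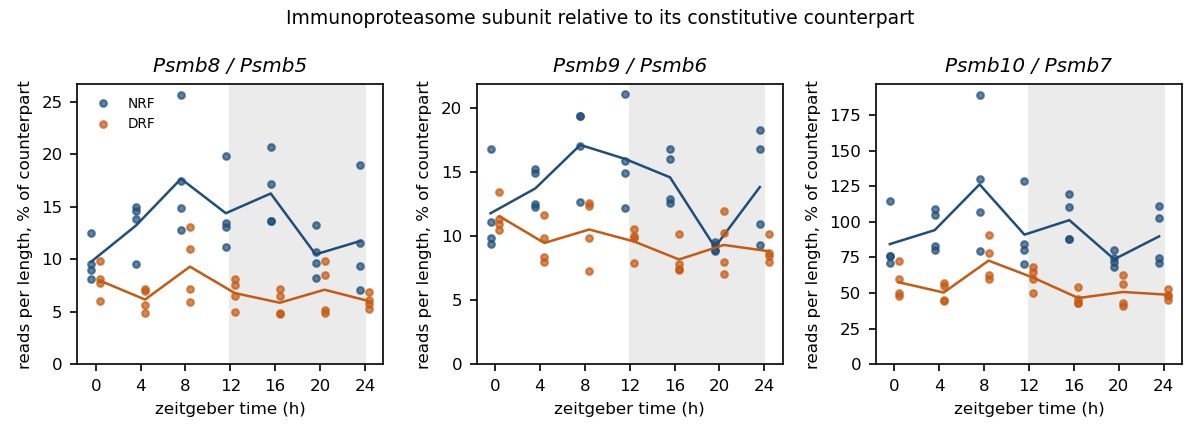
Reads per length of each immunoproteasome subunit as a percentage of its constitutive counterpart, against zeitgeber time; points are libraries and lines the means of 4 mice. Medians are 13.2% under NRF and 6.72% under DRF for Psmb8 over Psmb5, 12.8% and 9.83% for Psmb9 over Psmb6, and 83.7% and 53.7% for Psmb10 over Psmb7.

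Genes that work beside the immunoproteasome were lower under DRF as well. Of 10 listed genes of antigen presentation and interferon response, 9 had a lower mean level and 0 a higher one, where 10.3% and 11.4% of all genes did. Without the 2 DRF libraries that stood apart, 9 were lower and 1, Tapbp, was higher. The MHC class I heavy chain H2-K1 ran from 312.1 through a median of 389.5 to 465.9 RPKM under NRF and from 262.5 through 314.5 to 356.4 RPKM under DRF, with a difference of -0.36 ± 0.04 (limma, adjusted p = 4.49e-09). The peptide transporter subunit Tap2 differed by -0.31 ± 0.04 (limma, adjusted p = 1.51e-08) and the interferon-response factor Irf1 by -0.30 ± 0.04 (limma, adjusted p = 2.98e-07). H2-D1, Erap1, Tap1, B2m and Nlrc5 were lower by -0.28, -0.25, -0.26, -0.16 and -0.16. The loading factor Tapbp did not pass the test, at 0.10 ± 0.04 (limma, adjusted p = 0.0864). Calls of B2m and Nlrc5 were lost without ZT24 and without any 1 replicate number, at adjusted p up to 0.157.

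Cell-type markers moved with the regimens too. Of all genes, 10.3% were lower under DRF and 11.4% higher. Of 6 macrophage markers, 4 were lower (Csf1r by -0.33, Mrc1 by -0.34, Adgre1 by -0.26 and Cd163 by -0.26), while C1qa and Cd68 did not pass the test. The macrophage markers summed to 203.3 to 361.2 RPKM under NRF and to 146.0 to 318.4 RPKM under DRF. Of 5 T lymphocyte markers only Cd3g was lower, by -0.18, and the list summed to 1.49 to 3.10 RPKM under NRF and 1.07 to 2.81 RPKM under DRF. None of 5 B lymphocyte markers passed that test (limma; 0 also at an unadjusted p under 0.05), and the list summed to 2.42 to 14.3 RPKM under NRF and 2.06 to 9.74 RPKM under DRF. Among 6 adipocyte markers Adipoq was lower by -0.31 and Cfd by -1.37, while Lep was higher by 0.60. Plin1, Cidec and Fabp4 did not pass the test. The adipocyte list summed to 13410 to 28074 RPKM under NRF and 5368 to 16846 RPKM under DRF. Of 4 endothelial markers Tek was lower, by -0.15, and the list summed to 102.8 to 158.9 RPKM under NRF and 73.3 to 157.1 RPKM under DRF. Of 4 mesothelial markers 3 were lower, or 2 without the 2 DRF libraries that stood apart, which also made Cd5 the second T lymphocyte marker called lower and the endothelial Cdh5 higher. All 4 red cell markers were higher, by 0.44 to 0.52. The part of these shifts in the proteasome results was not tested. In bulk tissue, fewer cells of a type and less RNA per cell cannot be told apart.

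A fed-minus-fasted difference was taken over both regimens, from ZT16 and ZT20 against ZT4 and ZT8 under NRF and the reverse under DRF, so that light and dark cancel. Of the constitutive subunits, 0 of 31 were higher with feeding and 2 lower, where 12.4% and 12.1% of all genes were higher and lower. At an unadjusted p under 0.05, 3 of the 31 differed. The share of all genes at that threshold is not given here. Their median difference was 0.04, with 19 estimates above 0 and 12 below, and it was -0.0061 with plain library totals. Taken from 1 replicate number at a time the median ran from -0.013 to 0.070, a range that includes 0. Without the 2 DRF libraries that stood apart, 1 subunit, the lid gene Psmd7, was higher. The lower ones were the alpha subunit Psma5, by -0.26 ± 0.04 (limma, adjusted p = 8.27e-06), and Psmd4, by -0.24 ± 0.05 (limma, adjusted p = 3.08e-04). Psma5 had 33.1, 37.0, 34.7 and 33.8 RPKM at ZT16 under NRF, when the mice ate, and 46.7, 46.8, 57.7 and 53.9 RPKM under DRF, when they fasted, without overlap. At ZT8 it had 35.8, 43.2, 40.8 and 41.4 RPKM under NRF and 38.6, 38.5, 41.3 and 41.9 RPKM under DRF, and the groups overlapped. Psmd4 had 35.6, 39.2, 37.3 and 36.9 RPKM at ZT20 under NRF and 45.8, 54.8, 54.96 and 49.97 RPKM under DRF, without overlap.

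In the other rings the largest and smallest differences with feeding were 0.11 ± 0.08 for Psmb5 and -0.02 ± 0.05 for Psmb1, 0.06 ± 0.07 for Psmc4 and -0.02 ± 0.06 for Psmc1, and none of these 4 passed the test. The smallest in the alpha ring was 0.03 ± 0.06 for Psma3, and among the other cap subunits 0.01 ± 0.09 for Psmd14. The dark-minus-light counterpart, in which feeding cancels, was higher in 1 of 31, Psmd6, by 0.19 ± 0.06 (limma, adjusted p = 0.037), a call lost without replicate 2 or 4, and lower in 0, where 6.08% of all genes were higher in the dark and 6.08% lower in the dark. At an unadjusted p under 0.05, 6 of the 31 differed. The share of all genes at that threshold is not given here, and the 6.08% holds for adjusted p only. None of the immunoproteasome genes passed the test with feeding, at 0.12 ± 0.09 for Psmb8, -0.04 ± 0.08 for Psmb9 and 0.10 ± 0.06 for Psmb10 (limma, adjusted p = 0.388, 0.770 and 0.246). Psmb9, by -0.33 ± 0.08, and Psmb10, by -0.19 ± 0.06, were lower in the dark (limma, adjusted p = 0.00378 and 0.0301), and these calls were lost without replicate 2 for Psmb9 and without replicate 2, 3 or 4 for Psmb10. Of the B lymphocyte markers 3 of 5 were lower in the dark, against 0 of 5 T lymphocyte and 0 of 6 macrophage markers. The macrophage marker Cd163 was higher in the dark. Of the 10 genes of antigen presentation and interferon response, 2 (Tap1 and Tap2) were lower in the dark. Without the 2 DRF libraries that stood apart 1 was (Tap2), where 7.31% of all genes were. The part of cell types in the dark calls was not tested. With feeding, 2 of the 10 genes of antigen presentation and interferon response were lower (Tap1 and Irf1) and 0 higher. Of all genes, 12.1% and 12.4% were. The largest and smallest feeding differences of that list were -0.41 for Tap1 and 0.00016 for B2m.

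How many constitutive subunits were rhythmic depended on the test. With JTK_CYCLE and Lomb-Scargle combined as in MetaCycle, 5 of 31 oscillated over 24 h under NRF (Psmc2, Psmc6, Psmd6, Psmd7 and Psmd12), where 26.3% of all genes did. Under DRF 0 of 31 did, against 14.5% of all genes, so none was dual-oscillating (rhythmic under both regimens), as 8.9% of all genes were, and none could be called phase inverted, a peak moved by at least 8 h. At an unadjusted p under 0.05, 8 of 31 oscillated under NRF and 0 under DRF, where 31.9% and 22% of all genes did. The cosine fit in limma called 12 of 31 under NRF and 3 under DRF (Psma5, Psmd4 and Psmd11), where it called 33.7% and 26.7% of all genes. Leaving out replicate 2, 3 or 4 left 0, 2 and 1 of the 5. Phases of these 5 under NRF lay together, from 20.7 h for Psmd12 to 21.8 h for Psmc6. The largest amplitude among them was that of Psmd6, a lid scaffold, with 0.26 ± 0.05 log2 units under NRF and 0.10 ± 0.05 under DRF, and its group means ran from 20.9 RPKM at ZT8 to 32.7 RPKM at ZT24 under NRF.

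The rhythms themselves differed between the regimens for 9 of 31 subunits (Psma5, Psmc2, Psmc4, Psmc6, Psmd4, Psmd6, Psmd7, Psmd11 and Psmd12), where 36% of all genes did. Without the 2 DRF libraries that stood apart it was 12 of 31 (38.7%), where 40.6% of all genes did. The count was 5 without replicate 4. It was 19 when libraries were scaled by their plain totals. The shares of all genes under these settings are not given here, so neither count can be set against a background. The test asked whether the cosine terms depended on the regimen. Psma5 and Psmd4 had fitted amplitudes above 3 SE in both regimens. Psma5 peaked at 4.71 ± 0.89 h under NRF and 19.04 ± 0.92 h under DRF, and Psmd4 at 7.80 ± 0.90 h and 20.8 ± 1.13 h, fitted shifts of 9.66 ± 1.28 h and 10.99 ± 1.45 h. Both genes also hold the feeding calls above, so these shifts are not separate evidence. Neither passed the combined rhythm test, with adjusted p of 0.216 and 0.664 for Psma5 and 0.0909 and 0.963 for Psmd4. The median peak-to-trough difference of the 31 was 0.25 log2 units under NRF and 0.16 under DRF, where all genes had 0.19 and 0.18.

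**Figure D5:**
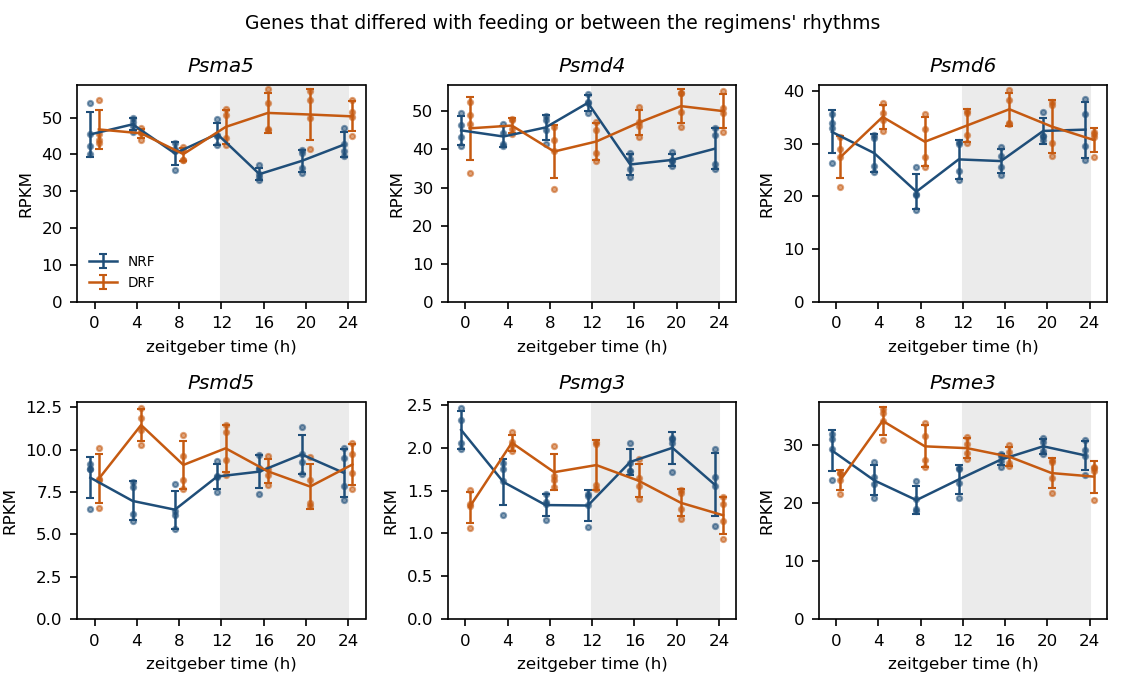
RPKM against zeitgeber time for 6 genes with a feeding, dark or rhythm call; points are libraries, lines and bars the mean and SD of 4 mice, and grey the dark phase. Psma5 and Psmd4 are higher under DRF at ZT16 and ZT20, and Psmd5, Psmg3 and Psme3 have the higher mean under DRF at ZT4, ZT8 and ZT12 and the lower one at ZT0 and ZT20.

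Of the 13 accessory genes, 4 had a higher mean level under DRF (Psme3, Psme4, Psmd5 and Psmd10), where 11.4% of all genes did, and 1 a lower one (Psmg4, a chaperone of alpha-ring assembly), where 10.3% did. Leaving out the 2 DRF libraries that stood apart gave 5 higher, Psmf1 being added. The Psme3 call was lost without replicate 2, 3 or 4, and that of Psmd5 without replicate 3. Psme4, the PA200 activator that caps the core in place of the 19S cap, ran from 7.41 through a median of 11.6 to 14.2 RPKM under NRF and from 11.7 through 15.3 to 19.7 RPKM under DRF. Its difference was 0.39 ± 0.05 (limma, adjusted p = 6.93e-09), and the 4 DRF libraries lay above the 4 NRF libraries at ZT0, ZT4, ZT16, ZT20 and ZT24. How often all genes separated in this way is not given here. Psme4 was also higher in the dark, by 0.19 ± 0.06 (limma, adjusted p = 0.0194), a call lost without replicate 2 or 3. Psmg4 differed by -0.20 ± 0.06 (limma, adjusted p = 0.00762), and its call was lost without replicate 2. The interferon-inducible activator subunits Psme1 and Psme2, which serve the immunoproteasome, did not pass the test, at 0.03 ± 0.04 and -0.05 ± 0.05 (limma, adjusted p = 0.620 and 0.519). Psme2b, a near copy of Psme2 whose reads may be shared with it, was at 0.05 ± 0.06. Psmd10, a cap chaperone, differed by 0.16 ± 0.04 (limma, adjusted p = 0.00236). Psmc3ip, a recombination factor and no subunit, differed by 0.16 ± 0.06 (limma, adjusted p = 0.0279). The inhibitor Psmf1 and the chaperones Psmg1, Psmg2, Psmg3 and Psmd9 did not pass it either.

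With feeding, 3 of 13 accessory genes were higher and 0 lower, where 12.4% and 12.1% of all genes were. Psmd5, a chaperone that holds the ATPase ring during assembly, was higher by 0.38 ± 0.07 (limma, adjusted p = 2.83e-05), or 1.30-fold. At ZT4 it had 7.79, 8.13, 5.80 and 6.19 RPKM under NRF and 11.2, 10.3, 12.5 and 11.9 RPKM under DRF, without overlap. Psme3, the nuclear PA28-gamma activator, was higher by 0.32 ± 0.05 (limma, adjusted p = 5.73e-07), and at ZT8 it had 18.9, 18.7, 23.9 and 20.7 RPKM under NRF and 27.5, 26.2, 34.0 and 31.7 RPKM under DRF. Psmg3, a chaperone of alpha-ring assembly, was higher by 0.31 ± 0.06 (limma, adjusted p = 1.19e-04). Fitted peaks under NRF lay at 18.7 h for Psmd5, 20.3 h for Psme3 and 20.9 h for Psmg3, and under DRF at 7.13, 8.50 and 9.05 h. The fitted shifts were 11.6 ± 1.40, 11.8 ± 1.022 and 11.8 ± 1.201 h. These genes were named for their feeding difference, which takes night minus day under NRF and the reverse under DRF. Large shifts follow in part from that choice and add no separate evidence. All 3 oscillated under NRF and none under DRF in the combined test (adjusted p under DRF 1.0, 0.190 and 0.0514), so they were not dual-oscillating. Without the 2 DRF libraries that stood apart, 2 of the 13 accessory genes, Psme3 and Psmg3, oscillated under DRF too, where 19% of all genes did. The smallest differences with feeding were 0.03 ± 0.05 for Psme1 and -0.02 ± 0.04 for Psmd9.

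The wider pathway was read from 4 further lists. Among 8 partners outside the symbol rule, 4 had a higher mean under DRF (the ubiquitin receptor Adrm1, the deubiquitinase Usp14, the maturation factor Pomp and the thioredoxin-like Txnl1) and 0 a lower one, where 11.4% and 10.3% of all genes did. In the fit without the 2 DRF libraries that stood apart 6 were higher. The Adrm1 call was lost without replicate 1 or 4. Pomp differed by 0.21 ± 0.05 (limma, adjusted p = 5.34e-04). Txnl1 was also higher with feeding, by 0.33 ± 0.08, and Usp14 had the smallest such difference of the list, 0.02 ± 0.06. Among 10 shuttle and p97 factors, 6 were higher under DRF and 0 lower, and 7 were higher without those 2 libraries. The p97 ATPase itself, Vcp, differed by 0.16 ± 0.05 (limma, adjusted p = 0.0166), a call lost without ZT24 or any 1 replicate number. Vcp also had the smallest difference with feeding among these factors, 0.02. The shuttle Ubqln4 was higher with feeding by 0.36 ± 0.04 (limma, adjusted p = 1.12e-10) and the shuttle Ubqln2 lower by -0.34 ± 0.05 (limma, adjusted p = 1.84e-06), so this family moved both ways.

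Of 7 regulators of proteasome genes, 1 had a higher mean level under DRF and 0 a lower one, where 11.4% and 10.3% of all genes did. It was Nfe2l1, higher by 0.18 ± 0.06 (limma, adjusted p = 0.0128), a call lost without replicate 2 or 3. With feeding, 3 of 7 were higher (Nfe2l1, Nfe2l2 and the protease Ddi2, which activates Nfe2l1) and 2 lower (Ngly1 and Foxo4), where 12.4% and 12.1% of all genes were. The Ddi2 call was lost under plain totals and without replicate 1 or 2. Nfe2l1 was higher with feeding by 0.33 ± 0.07 (limma, adjusted p = 9.49e-05). At ZT4 it had 90.8, 75.1, 73.4 and 80.3 RPKM under NRF and 126.5, 120.2, 143.4 and 140.1 RPKM under DRF, without overlap. Nfe2l2, a relative that answers oxidative stress, was higher with feeding by 0.37 ± 0.06 (limma, adjusted p = 1.62e-06), and Stat3 at 0.02 ± 0.06 did not pass the test.

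In the list of ubiquitin and its E1 enzymes, the E1 enzyme Uba1 was higher with feeding, by 0.17 ± 0.06 (limma, adjusted p = 0.0258), a call lost without replicate 2, 3 or 4. Ubb, a polyubiquitin gene, was lower by -1.06 ± 0.10 (limma, adjusted p = 1.01e-11), or 0.480-fold. At ZT4 it had 339.1, 335.2, 675.4 and 397.2 RPKM under NRF, when the mice fasted, and 141.2, 123.9, 162.7 and 169.7 RPKM under DRF, when they ate. At ZT20 it had 187.8, 213.9, 241.8 and 231.7 RPKM under NRF and 346.3, 447.6, 438.6 and 466.0 RPKM under DRF. The groups did not overlap at either time, and the order was reversed. Ubb oscillated under both regimens (adjusted p = 6.24e-06 and 1.75e-04), unlike the constitutive subunits. The E1 enzyme Uba6 had the smallest feeding difference of the list, 0.02 ± 0.05.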

How the data were processed

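RNA-seq of VAT gave 1 table of 56 libraries. The submitters' processing notes name HISAT2 2.0.5, featureCounts 1.5.0-p3 and mm10. The strand setting of the counting is not given in the sources used here. The deposited values are called TPM, but their steps show a score, in which the authors took log2(CPM + 1), then divided it by length and rescaled each library. Whole reads were recovered from them for all but 2 genes (of 1262086 values up to 10000 reads, 99.9998% fell on a whole number to within 0.02). For 8 of the recovered genes the values were too abundant to check. For 858 genes, and for 22 abundant ones, the length was itself taken from the values. The authors' effective library sizes were kept.

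Rhythms were tested on the deposited values by JTK_CYCLE and Lomb-Scargle at 24 h, combined by Fisher's method and adjusted over 25939 genes. Tests planned on log2(TPM + 1) were run on log2(CPM + 1) because of the deposited scale. Differences were fitted with limma 3.58.1 (R 4.3.3) on log2(CPM + 1), a pseudocount of 1, over the 25937 genes with recovered reads (all genes had a mean deposited value of at least 0.1), as a cosine model for mean levels and rhythm differences and as 14 group means for the rest. P-values were Benjamini-Hochberg adjusted with a threshold of 0.05. Python 3.11.15, numpy 2.4.6, pandas 2.3.3 and scipy 1.17.1 were used. Scripts were tested on simulated data. Each member but Psma8 had at least 51 reads in each library.

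The genes, lists and rules were chosen with earlier results of these data known. Statistics are given for the immunoproteasome, for the genes of each class and list with the largest and smallest feeding difference, and for subunits against the sign of the rest. Other genes were named after their values were seen. Alternatives were other scalings, a pseudocount of 0.1, a mean CPM of at least 1, the replicate number as a block, and leaving out ZT24, a replicate number or the 2 DRF libraries that stood apart. Leaving out 1 NRF library was added after the data were seen. Psmb11 was not analysed here, and some genes of the pathway lists are not reported here.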

Additional observations from a re-analysis of the deposited data

Results flagged for a closer look

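In 9 of 210 groups of 4 libraries over 15 genes, 1 library lay far from the other 3 (Dixon's test, which chance exceeds in about 1 of 20 groups). They were Psmb10 at DRF ZT4 replicate 3 (21.3 RPKM) and DRF ZT20 replicate 4 (23.997 RPKM), Psmb1 at DRF ZT0 replicate 3 (37.6 RPKM), Psmd9 at DRF ZT8 replicate 3 (3.26 RPKM) and DRF ZT16 replicate 3 (2.64 RPKM), and Psme3 at DRF ZT24 replicate 1 (20.5 RPKM). Under NRF they were Psmc4 and Psmd14 at ZT8 replicate 3 (30.8 and 25.05 RPKM) and Psmd5 at ZT0 replicate 1 (6.52 RPKM).

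The fed-minus-fasted difference was not the same under both regimens for 4 genes. NRF minus DRF, it differed by -0.66 for Psmb9, -0.39 for Psmb10, 0.37 for Psmd6 and 0.39 for Psme4, in log2 units. By construction this is 2 times the dark-minus-light difference, so it is the same result as the dark calls of these genes and adds no separate evidence.

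The 24-h rhythm differed between the regimens (limma, adjusted p) for Psma5 (1.55e-04), Psmc2 (0.00797), Psmc4 (0.00451), Psmc6 (0.00149), Psmd4 (1.37e-04), Psmd6 (0.00118), Psmd7 (5.58e-04), Psmd11 (0.0192) and Psmd12 (0.0123). It also differed for the immunoproteasome gene Psmb9 (0.0215) and for the accessory genes Psme3 (3.24e-08), Psmg3 (4.85e-06) and Psmd5 (6.85e-05).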

How the results depend on the processing

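Of 75 calls of single genes, 28 were lost under at least 1 alternative, 18 of them only when a replicate number was left out, and none changed direction. Over the constitutive subunits, the count oscillating under NRF was 0 by Lomb-Scargle alone and 12 by the cosine fit in limma, and 0 to 4 without a replicate number. Under DRF it was 3 by the cosine fit and 1 with median-of-ratios scaling, and the counts oscillating under both regimens and phase inverted were 2 and 1 in the same settings. Plain library totals gave 19 subunits with a different rhythm, 4 lower with feeding, 7 lower subunit and time point pairs and a median feeding difference of -0.0061. Median-of-ratios scaling, and leaving out the 2 libraries that stood apart, each gave 1 lower pair. Without those 2 libraries 1 subunit was higher with feeding and 66 pairs were higher under DRF. A mean CPM of at least 1 gave 2 subunits higher in the dark. Without a replicate number, 5 to 9 subunits had a different rhythm, 0 to 1 were higher in the dark, 10 to 37 pairs were higher and 0 to 5 lower. The cause was not tested, and the share of all genes in each setting is not given beside these counts.

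Replicate numbers did not pair the libraries: over 28 same-numbered pairs the correlation ran from -0.30 to 0.34, 8 pairs were over 0.1, and 5 NRF libraries correlated best with their own number. With the replicate block, 25 subunits had a higher mean under DRF, 1 was higher with feeding and 2 were higher in the dark.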
